A study of Mus musculus with 7 samples.

Results

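The expression of 10 genes of macrophages and dendritic cells (Csf1r, C1qa, C1qb, C1qc, Cd68, Itgax, Itgam, Cx3cr1, Mrc1 and Lyz2) was examined in ileal scrapings of mice on a normal or a low cystine diet. They are the 10 of 38293 rows of the deposited count table whose gene name is 1 of these symbols, and each symbol named 1 row. All 10 passed the filter on low counts, which left 14869 genes for testing.

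RNA was sequenced from 4 mice on the normal cystine diet (normal cys, libraries X17SI4, X32SI4, SI9 and X1SI4) and 3 mice on the cystine-restricted diet (low cys, libraries X23SI4, X26SI4 and X10SI4). The animals were male C57BL/6NRJ mice of 8 weeks, without a transgene or deletion, which were acclimatised for 1 week and then received the diets for 2 weeks. Both groups shared a high fat background diet with 40% of its energy from fat. Total cystine was 0.38% in the normal diet and 0.08% in the restricted diet, in which alanine took the place of added cystine. The ileum, the distal end of the small intestine, was scraped, and such scrapings hold the epithelium and the lamina propria but not the muscle layer, so macrophages and dendritic cells contribute a small part of the RNA. In such bulk samples, fewer cells of a type and less RNA per cell cannot be told apart.

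Macrophages of the gut lamina propria are mostly replenished from blood monocytes and depend on signals through the receptor encoded by Csf1r. They take up dying cells and bacteria, make complement component C1q, and many of them carry the fractalkine receptor encoded by Cx3cr1. Dendritic cells carry CD11c, the product of Itgax, sample antigen and migrate to lymph nodes to prime T cells. None of the 10 genes is fully specific: Itgax and Itgam are also read in other leukocytes, Itgam in neutrophils and natural killer cells, Mrc1 in lymphatic endothelium, and Lyz2 in neutrophils.

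Sequences are shown for the members whose position or sequence bears on how their counts can be read. C1qa, C1qb and C1qc lie next to each other on the minus strand of chromosome 4 (GRCm38), at positions 136895917 to 136898803, 136880129 to 136886187 and 136889804 to 136893065. C1qa and C1qc are 2.851 kb apart, and C1qc and C1qb are 3.616 kb apart. Itgam (chromosome 7, 128062640 to 128128160, plus strand) and Itgax (128129547 to 128150656, plus strand) are 1.386 kb apart. The windows from 250 bases before to 50 bases after the transcription start of C1qb (chr4:136886151-136886450, minus strand), C1qc (chr4:136892865-136893164, minus strand), Itgam (chr7:128062390-128062689, plus strand) and Itgax (chr7:128129300-128129599, plus strand) are printed from RefSeq (GRCm38.p6), each 5′ to 3′ on the strand of its gene. These are a pair of neighbours whose levels moved together and a pair whose levels did not. Capitals mark GAGGAA, the core letters bound by the myeloid transcription factor PU.1, or the same letters on the other strand, TTCCTC.
C1qb: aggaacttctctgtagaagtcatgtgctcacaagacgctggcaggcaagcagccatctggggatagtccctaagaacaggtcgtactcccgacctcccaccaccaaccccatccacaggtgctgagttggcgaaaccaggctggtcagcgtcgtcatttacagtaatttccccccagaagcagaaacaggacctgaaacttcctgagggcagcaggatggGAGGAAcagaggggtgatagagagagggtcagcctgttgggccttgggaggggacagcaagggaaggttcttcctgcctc
C1qc: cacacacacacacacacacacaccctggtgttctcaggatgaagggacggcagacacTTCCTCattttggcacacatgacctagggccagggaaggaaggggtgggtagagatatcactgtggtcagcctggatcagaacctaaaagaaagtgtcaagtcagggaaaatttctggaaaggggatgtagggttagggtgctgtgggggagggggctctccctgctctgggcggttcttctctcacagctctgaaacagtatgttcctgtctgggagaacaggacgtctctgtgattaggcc
Itgam: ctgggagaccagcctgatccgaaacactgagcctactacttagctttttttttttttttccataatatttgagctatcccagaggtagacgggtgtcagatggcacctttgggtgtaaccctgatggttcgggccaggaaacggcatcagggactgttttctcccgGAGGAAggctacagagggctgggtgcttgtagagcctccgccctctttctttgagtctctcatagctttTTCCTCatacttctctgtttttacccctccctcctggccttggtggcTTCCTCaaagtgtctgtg
Itgax: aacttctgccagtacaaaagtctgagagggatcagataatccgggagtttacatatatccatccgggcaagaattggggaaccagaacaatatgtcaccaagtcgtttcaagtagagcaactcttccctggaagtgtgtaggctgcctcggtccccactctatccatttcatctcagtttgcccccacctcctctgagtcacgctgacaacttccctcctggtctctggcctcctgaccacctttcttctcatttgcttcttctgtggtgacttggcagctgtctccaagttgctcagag

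The windows of C1qb and C1qc held 1 match each, the window of Itgam held 3 and the window of Itgax held 0. RefSeq windows were matched for 8 of the 10 genes, and 5 of these 8 held the letters (Mrc1 3 matches, Cd68 2 matches, with 0 in Cx3cr1 and Lyz2), against 28.3% of 32851 mouse windows of the same length. Such a match is a description of these letters, and their absence from a window says nothing about binding of the factor.

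Lyz2 encodes the lysozyme of macrophages, and Lyz1, which lies 5.521 kb away, encodes the lysozyme of Paneth cells, the antimicrobial cells of the crypt base. Their coding sequences (GENCODE M21) have 444 bases each, of which 22 differ (95.05% identical), and the longest identical run has 118 bases. Stretches of 61 bases of exon 2 of Lyz2 (chr10:117280672-117280732, minus strand) and Lyz1 (chr10:117291060-117291120, minus strand) are printed because a read of 50 bases within them can be identical in both. The capital marks the 1 base that differs, and the 60 bases after it are the same.
Lyz2: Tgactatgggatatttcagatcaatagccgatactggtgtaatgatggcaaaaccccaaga
Lyz1: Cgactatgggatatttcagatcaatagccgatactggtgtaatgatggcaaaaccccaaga

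In all, 15.4% of the 50-base stretches of the Lyz2 transcript also occur in Lyz1. These are single stretches, whereas the libraries were sequenced as pairs of reads, and the share of pairs identical in both genes was not computed. Of the other members, Csf1r, C1qa, C1qb, C1qc, Cd68 and Mrc1 shared 0% of their stretches with another gene, Cx3cr1 shared 0.269% and Itgax shared 8.02%, with the neighbouring integrin gene Itgad. Itgam shared 66.3% of its stretches with the gene model Gm49368, which is not listed in the deposited table. The deposited Itgam row had 6377 exon bases, and 1353 of them (21.2%, chromosome 7, 128126808 to 128128160) lie beyond the end of Itgam in GENCODE M21 and belong to Gm49368 there. Reads of Itgam and of that last exon therefore stand in 1 count and cannot be told apart here. In Csf1r (chromosome 18, 61105572 to 61132149, plus strand), 871 of the 4885 exon bases (17.8%) are overlapped by Hmgxb3 on the other strand.

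The total count ranged from 19712355 to 22412703 in the 4 normal cys libraries and from 14888760 to 21942518 in the 3 low cys libraries. Counts were scaled to CPM (counts of a gene per 1000000 counts of its library) with TMM factors, which correct the library size for differences in composition, of 0.900 to 1.12. A member had between 17 and 1548 counts in a library. Differences between the diets were tested with edgeR's quasi-likelihood F-test over 14869 genes with Benjamini-Hochberg adjustment, and each member on its own by an exact permutation test of mean log2 CPM (two-sided), whose smallest possible p with 4 and 3 libraries is 0.0286. One normal cys library, X1SI4, stood apart: it was the lowest of the 7 libraries in 9 of the 10 members, against 24.9% of all genes tested, the exception being Mrc1. In these 9 members its CPM was between 0.150 (C1qc) and 0.767 (Itgam) of that of the lowest other library. The estimate of each member without X1SI4 is therefore given beside its result. Neither the labels nor the methods give a sequencing batch, so within-batch values could not be computed.

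None of the 10 members passed the test between the diets. In edgeR, 0 of 10 had an adjusted p under 0.05 (0% of all genes tested) and 0 of 10 had an unadjusted p under 0.05 (5.49% of all genes tested). With DESeq2, 0 of 10 had an adjusted p under 0.05 (0.0928% of genes with an adjusted p), the smallest being 0.898. With limma-voom, Itgam alone had an unadjusted p under 0.05 (1 of 10, against 6.29% of all genes tested). In 0 of 10 members the libraries of the diets did not overlap, against 6.83% of all genes tested. The estimates lay mostly on 1 side: 9 of 10 were higher on the low cystine diet (51.2% of all genes tested), and 10 of 10 when counts were scaled by total library size alone, which moved the median of all genes to 0.15. With TMM the median log2 fold change was 0.46 over the members and 0.01 over all genes tested. Without X1SI4, 7 of 10 members were higher and their median was 0.19. The highest value of a member was in a low cys library in 9 of 10 genes, 6 times in X10SI4, 2 times in X23SI4 and 1 time in X26SI4, and Itgax was highest in normal cys library SI9. The share of all genes tested that were highest in a low cys library was not computed, so this count has no baseline. The members share their libraries, so these counts over genes are not counts over independent measurements. The intervals were wide. The 95% intervals of the 10 folds together ran from 0.514 to 4.10, and 8 of the 10 held a 2-fold increase.

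**Figure D1:**
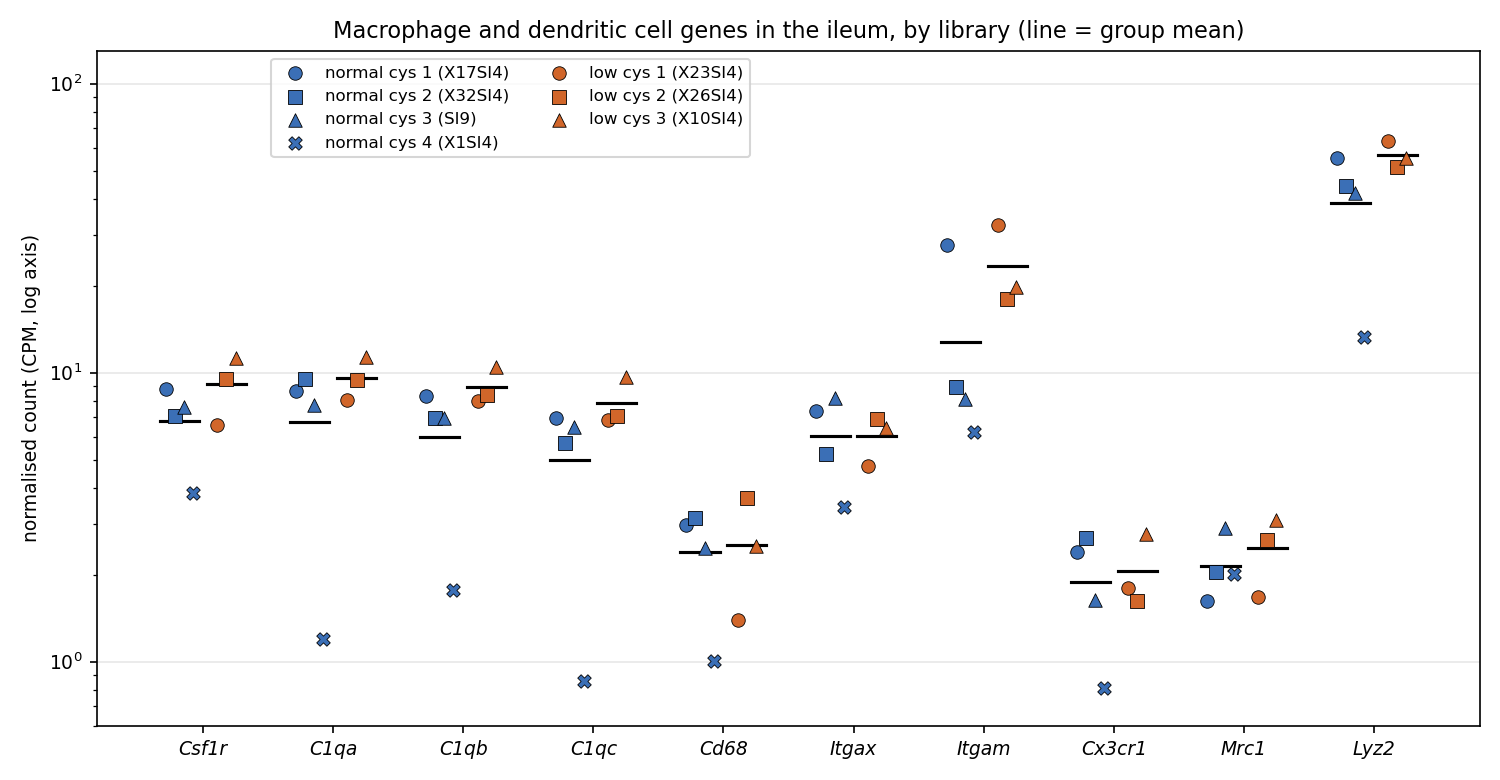
Normalised counts (CPM, log axis) of the 10 genes in each library, normal cys in blue and low cys in orange, with a line at each group mean. The diets overlap in every gene, and the normal cys library X1SI4 (cross) is the lowest point in 9 of the 10 genes.

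Csf1r encodes the receptor for the growth factors CSF1 and IL-34, on which most tissue macrophages depend. Its level was 8.78, 7.09, 7.62 and 3.82 CPM in normal cys libraries X17SI4, X32SI4, SI9 and X1SI4, and 6.57, 9.50 and 11.3 CPM in low cys libraries X23SI4, X26SI4 and X10SI4. The diets overlapped, with X1SI4 the lowest and X10SI4 the highest. The mean was 6.83 ± 2.12 CPM (SD, n = 4) on the normal and 9.12 ± 2.38 CPM (SD, n = 3) on the low cystine diet. The log2 fold change was 0.41 (SE 0.300, 95% interval -0.26 to 1.09, edgeR adjusted p = 0.798, exact permutation p = 0.314). Without X1SI4 it was 0.21.

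The genes of the C1q chains showed the widest gap between X1SI4 and the other libraries. C1qa, C1qb and C1qc encode the A, B and C chains, which assemble into C1q, the recognition molecule of the classical complement pathway, made largely by tissue macrophages. C1qa had 8.62, 9.54, 7.73 and 1.19 CPM in X17SI4, X32SI4, SI9 and X1SI4, and 8.04, 9.44 and 11.3 CPM in X23SI4, X26SI4 and X10SI4. X1SI4 had 25 counts of C1qa, and the other 6 libraries had 147 to 210. The low cys mean of 9.61 ± 1.66 CPM (SD, n = 3) was higher than the normal cys mean of 6.77 ± 3.79 CPM (SD, n = 4), a log2 fold change of 0.50 (SE 0.540, edgeR adjusted p = 0.833, exact permutation p = 0.486). Of the normal cys libraries, X32SI4 lay above X23SI4 and X26SI4, so the order of the libraries did not follow the diet.

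C1qb had 8.31, 6.95, 6.94 and 1.77 CPM in the normal cys libraries, in the same order, and 8.0, 8.37 and 10.4 CPM in the low cys libraries. The means were 5.99 ± 2.89 CPM (SD, n = 4) and 8.94 ± 1.31 CPM (SD, n = 3), with a log2 fold change of 0.58 (SE 0.425, edgeR adjusted p = 0.798, exact permutation p = 0.257). The diets overlapped because X17SI4 lay above X23SI4. C1qc had 6.95, 5.72, 6.47 and 0.86 CPM in the normal cys libraries and 6.86, 7.06 and 9.67 CPM in the low cys libraries, with means of 5.0 ± 2.81 CPM (SD, n = 4) and 7.86 ± 1.57 CPM (SD, n = 3). Its log2 fold change was 0.65 (SE 0.540, edgeR adjusted p = 0.804, exact permutation p = 0.314). Again X17SI4 lay above X23SI4 in an otherwise higher low cys group. Without X1SI4 the log2 fold changes of C1qa, C1qb and C1qc were 0.15, 0.27 and 0.30, with edgeR unadjusted p-values of 0.457, 0.191 and 0.189.

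Summed over the 3 chains, C1q had 3.82 CPM in X1SI4 and 21.1 to 31.4 CPM in the other 6 libraries. The normal cys mean of this sum was 17.8 ± 9.36 CPM (SD, n = 4), and 22.4 ± 1.38 CPM (SD, n = 3) without X1SI4, against 26.4 ± 4.48 CPM (SD, n = 3) on the low cystine diet. The proportions of the chains were close to constant in the other 6 libraries. C1qa made up 35.1 to 42.9% of the C1q counts there, C1qb 31.3 to 34.9% and C1qc 25.8 to 30.7%. In X1SI4, with 80 C1q counts, C1qb had the largest part at 46.3% (Wilson 95% interval 35.7 to 57.1%), and over all libraries it had 33.8% (32.1 to 35.6%). These intervals cover counting error only. C1q was lower in X1SI4 than Csf1r was: the ratio of the C1q sum to Csf1r in CPM was 1.00 there and 2.62 to 3.48 in the other libraries.

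Cd68 encodes a lysosomal glycoprotein abundant in phagocytes. It had 2.98, 3.13, 2.47 and 1.00 CPM in X17SI4, X32SI4, SI9 and X1SI4, and 1.39, 3.69 and 2.51 CPM in X23SI4, X26SI4 and X10SI4. Its lowest and highest low cys libraries lay on either side of 3 of the 4 normal cys libraries. The means were 2.40 ± 0.971 CPM (SD, n = 4) and 2.53 ± 1.15 CPM (SD, n = 3), and the log2 fold change was 0.07 (SE 0.454, edgeR adjusted p = 0.977, exact permutation p = 0.83). Without X1SI4 it was -0.19. X23SI4, low in Cd68, was not low in C1q or Lyz2.

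Mrc1 encodes the mannose receptor CD206, an endocytic lectin of resident macrophages. It had 1.62, 2.04, 2.89 and 2.01 CPM in the normal cys libraries and 1.67, 2.62 and 3.09 CPM in the low cys libraries, with 31 to 55 counts per library. Mrc1 was the member in which X1SI4 was not the lowest library. Its log2 fold change was 0.19 (SE 0.322, edgeR adjusted p = 0.876, exact permutation p = 0.514), and 0.16 without X1SI4.

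Cx3cr1 encodes the receptor for fractalkine, the membrane-bound chemokine encoded by Cx3cl1. It had 2.40, 2.68, 1.63 and 0.81 CPM in the normal cys libraries and 1.80, 1.62 and 2.77 CPM in the low cys libraries. Both groups covered much the same range apart from X1SI4, with a log2 fold change of 0.13 (SE 0.426, edgeR adjusted p = 0.942, exact permutation p = 0.714) and of -0.13 without X1SI4. Its ligand Cx3cl1 was far more abundant, at 127 to 184 CPM on the normal and 131 to 143 CPM on the low cystine diet, with a log2 fold change of -0.23 (SE 0.148, edgeR adjusted p = 0.794).

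Itgax encodes CD11c (integrin αX), the usual marker of dendritic cells, which is also carried by gut macrophages. It had 7.37, 5.22, 8.20 and 3.44 CPM in X17SI4, X32SI4, SI9 and X1SI4, and 4.73, 6.94 and 6.44 CPM in X23SI4, X26SI4 and X10SI4. The low cys libraries lay within the normal cys range. The means were 6.06 ± 2.15 CPM (SD, n = 4) and 6.04 ± 1.16 CPM (SD, n = 3), with a log2 fold change of -0.01 (SE 0.310, 95% interval -0.71 to 0.69, edgeR adjusted p = 0.997, exact permutation p = 0.914), and -0.20 without X1SI4.

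Itgam, the neighbour of Itgax, encodes CD11b (integrin αM) and had the largest estimate of the 10 members. It had 27.6, 8.95, 8.10 and 6.21 CPM in X17SI4, X32SI4, SI9 and X1SI4, and 32.3, 17.9 and 19.8 CPM in X23SI4, X26SI4 and X10SI4. A single normal cys library, X17SI4, overlapped the low cys libraries, and the other 3 lay below all of them. The means were 12.7 ± 10.01 CPM (SD, n = 4) and 23.4 ± 7.81 CPM (SD, n = 3), with a log2 fold change of 0.88 (SE 0.504, 95% interval -0.27 to 2.04, edgeR adjusted p = 0.794, exact permutation p = 0.114). With limma-voom the unadjusted p was 0.0278 (adjusted p = 0.719). Without X17SI4 the log2 fold change was 1.60 (SE 0.260, edgeR unadjusted p = 0.000242, adjusted p = 0.224), where 11.9% of all genes tested had an unadjusted p under 0.05. This fit takes out the only library that made the diets overlap, so its larger estimate and smaller p follow from that choice. They are no test of the diet. Without X23SI4, the highest library, the log2 fold change was 0.58 (edgeR unadjusted p = 0.336), and without X1SI4 it was 0.66.

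Integrin αM and αX reach the cell surface with the β2 chain, encoded by Itgb2. Itgb2 had 8.31, 6.95, 7.04 and 5.26 CPM in the normal cys libraries and 5.26, 9.999 and 5.35 CPM in the low cys libraries. Itgb2 was the highest of the normal cys libraries in X17SI4, as Itgam was, but X23SI4 and X10SI4, which were high in Itgam, had 2 of the 3 lowest values of Itgb2. Per kilobase of exon, the ratio of Itgam to Itgb2 was 1.59, 0.616, 0.550 and 0.566 in the normal cys libraries and 2.94, 0.858 and 1.78 in the low cys libraries. The ratio was above 1 in 3 of 7 libraries (X17SI4, X23SI4 and X10SI4), whereas that of Itgax to Itgb2 was 0.494 to 0.909. The length of Itgam in these ratios includes the 1353 bases that GENCODE M21 assigns to Gm49368, and the part of that exon in the Itgam counts was not tested. Granulocytes and monocytes can also carry Itgam, and their 14 listed markers summed to 5.96 to 11.6 CPM on the normal and 8.06 to 9.06 CPM on the low cystine diet. Siglecf, a lectin of eosinophils, made up most of this with 4.60 to 11.1 CPM, lowest in X17SI4 and highest in X1SI4. The other eosinophil genes of the list, Epx, Prg2, Ccr3 and Il5ra, reached at most 0.326, 0.318, 0.163 and 0.500 CPM. Of these, Epx, Ccr3 and Il5ra had 0 counts in X1SI4. The cells that gave the Siglecf counts were not tested. Csf3r, Ccr2 and Ly6c2 reached 1.25, 1.00 and 0.816 CPM. Mpo and Elane had 0 counts in all 7 libraries (which allows up to 0.0219 CPM each, taken as 3 counts over all libraries together), S100a8 was at most 0.0908 CPM and S100a9 at most 0.0454 CPM. The part of these cells in the Itgam counts was not tested.

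Lyz2 was the most abundant member. It had 55.3, 44.3, 41.8 and 13.2 CPM in X17SI4, X32SI4, SI9 and X1SI4, and 63.2, 51.4 and 55.4 CPM in X23SI4, X26SI4 and X10SI4. The 2 diets overlapped through X17SI4, which lay above X26SI4. The means were 38.6 ± 17.9 CPM (SD, n = 4) and 56.7 ± 5.98 CPM (SD, n = 3), with a log2 fold change of 0.55 (SE 0.392, 95% interval -0.35 to 1.45, edgeR adjusted p = 0.798, exact permutation p = 0.200) and of 0.27 without X1SI4. Lyz1, which shares part of its sequence as printed, had 1853, 762, 870 and 280 CPM in the normal cys libraries and 1812, 1221 and 1917 CPM in the low cys libraries. The same 4 libraries (X17SI4, X23SI4, X26SI4 and X10SI4) were the highest in Lyz2, Lyz1 and Itgam, and X1SI4 was the lowest in all 3. Lyz2 had 2.89 to 5.81 counts per 100 counts of Lyz1, and the part of Lyz1 reads in the Lyz2 counts was not tested.

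**Figure D2:**
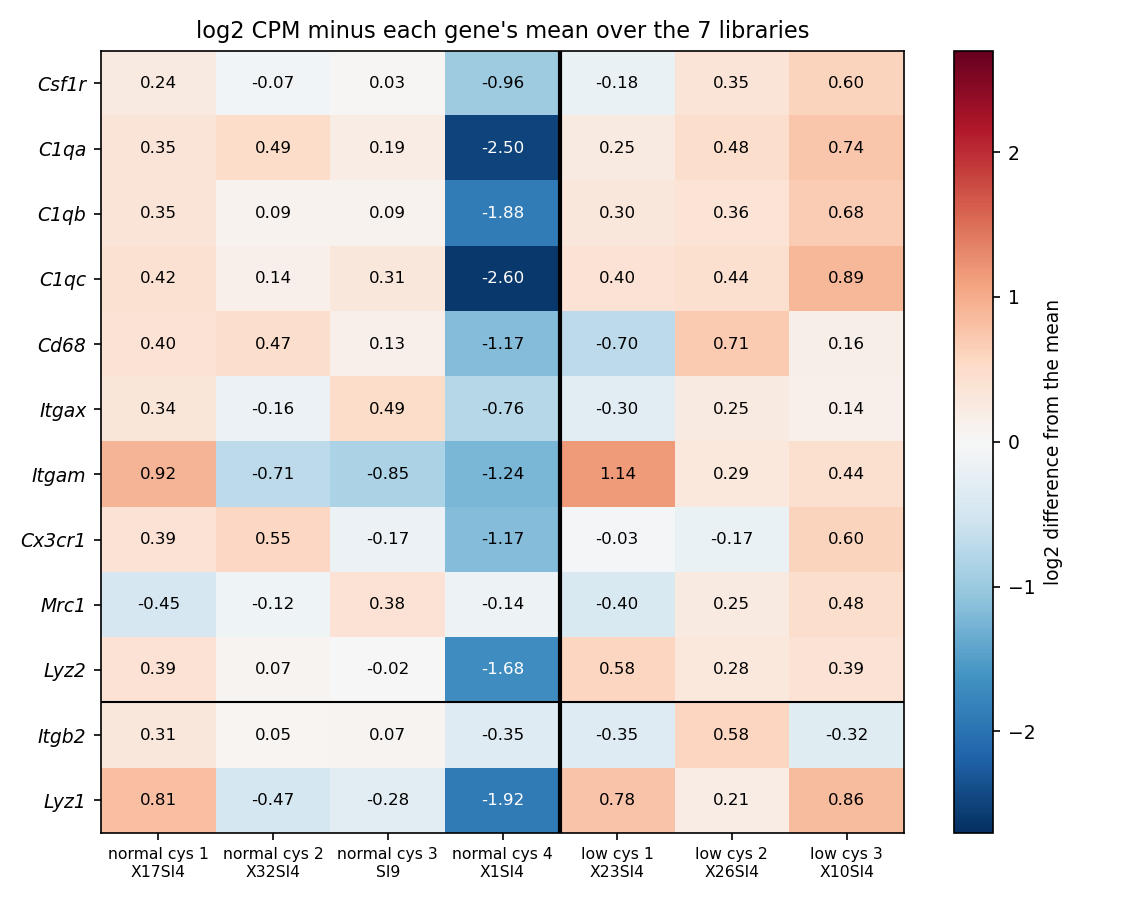
Log2 CPM of each gene minus its mean over the 7 libraries, with Itgb2 and Lyz1 in the lower rows and the diets separated by a vertical line. C1qa, C1qb and C1qc are -2.50, -1.88 and -2.60 in X1SI4, and Itgam is 0.92 in X17SI4 and 1.14 in X23SI4.

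Compared per kilobase of exon (CPM per kb), the order of the median levels was Lyz2 (40.6), C1qa (8.29), C1qb (7.35), C1qc (3.55), Itgam (2.81), Cd68 (2.0), Itgax (1.59), Csf1r (1.56), Cx3cr1 (0.480) and Mrc1 (0.344). Neighbours in this order that kept it in all 7 libraries were Lyz2 above C1qa, C1qb above C1qc and Csf1r above Cx3cr1. C1qa was above C1qb in 6 of 7 libraries. From C1qc to Csf1r and from Cx3cr1 to Mrc1, neighbours kept their order in 3 or 4 of 7 libraries and did not differ beyond the spread. The order of Itgam, Cd68, Itgax and Csf1r in the middle of the list thus changed from mouse to mouse, though Itgam was above Itgax in every library except SI9. C1qc changed places with Itgam but lay above Cd68, Itgax and Csf1r in every library except X1SI4.

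The members varied together across the libraries largely through X1SI4. Over the 45 pairs of members, the median Pearson correlation of log2 CPM was 0.75 over the 7 libraries and 0.31 over the 6 libraries without X1SI4. The 3 C1q pairs had 0.986 to 0.997 over 7 libraries and 0.645 to 0.956 over 6. The 9 pairs with Mrc1 had -0.32 to 0.45 over 7. All points share the libraries and their depth, so these values are descriptions. The genes outside the list whose log2 CPM was most like the mean of the members over the 7 libraries were Mex3a (r = 0.990, 0.837 without X1SI4), Pofut2 (0.987, 0.795), Scube1 (0.986, 0.945), Setd1b (0.985, 0.835) and Ptprs (0.979, 0.761). They are the highest of all genes tested, each was lowest in X1SI4, and Mex3a had at most 11 counts in a library.

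**Figure D3:**
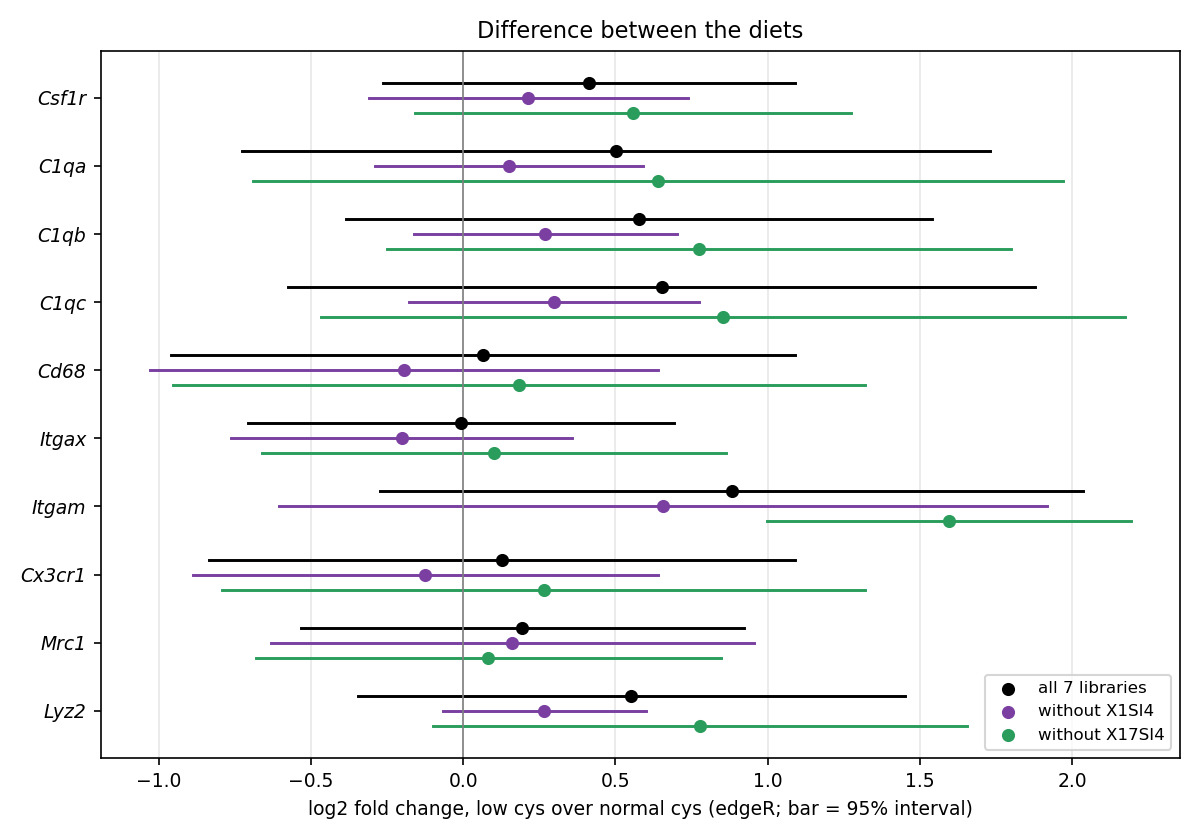
Log2 fold change of each gene, low cys over normal cys, with its 95% interval from edgeR, over all 7 libraries and without X1SI4 or X17SI4. All intervals over the 7 libraries include 0, and the estimate without X1SI4 is lower in each of the 10 genes. Itgam without X17SI4 has an interval above 0, but X17SI4 was the only normal cys library that overlapped the low cys libraries in that gene.

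Other genes of macrophages and dendritic cells were read from fixed lists. Of 20 other macrophage genes, 12 were tested, 10 of them were estimated higher on the restricted diet, and the median log2 fold change was 0.39. At an unadjusted p under 0.05, 2 were higher and 0 lower, against 5.49% of all genes tested in either direction. These were Ms4a7, a membrane protein of mature macrophages, with 0.38 to 1.41 CPM on the normal and 1.43 to 2.77 CPM on the low cystine diet (log2 fold change 1.20, SE 0.463), and Mpeg1, the pore-forming perforin-2 of phagocytes, with 4.11 to 12.4 and 14.4 to 17.6 CPM (log2 fold change 0.74, SE 0.322). The libraries of the diets did not overlap in either gene (6.83% of all genes tested), but both had an edgeR adjusted p of 0.794. Without X1SI4 their log2 fold changes were 0.92 and 0.49. The most abundant gene of the list, the phagocytic receptor gene Mertk, ran the other way between libraries: it was highest in X1SI4 (179 CPM) and 92.9 to 116 CPM in the other libraries. Adgre1, which encodes the macrophage marker F4/80, had 0.36 to 1.67 CPM, Cd163, Trem2, Siglec1, Vsig4 and Folr2 had at most 0.32 CPM in a library, and Cd209f had 0 counts in all 7 libraries.

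Of 16 dendritic cell genes, 12 were tested, 7 were higher, 0 had an unadjusted p under 0.05 in edgeR and the median log2 fold change was 0.14. The most abundant was Irf8, a transcription factor of the dendritic cell and monocyte lineages, with 130.8 ± 50.3 CPM (SD, n = 4) on the normal and 130.7 ± 35.1 CPM (SD, n = 3) on the low cystine diet. The more specific genes Xcr1 and Clec9a, a chemokine receptor and a lectin of cross-presenting dendritic cells, reached at most 0.19 and 0.94 CPM, and both had 0 counts in X1SI4. Of 14 monocyte and granulocyte genes, 2 were tested and 0 passed.

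Of 18 growth factor and chemokine genes that act on macrophages, 13 were tested and 0 passed at an unadjusted p under 0.05, with a median log2 fold change of -0.10. Csf1, a ligand of the Csf1r receptor, had 0.19 to 0.77 CPM on the normal and 0.84 to 1.12 CPM on the low cystine diet (log2 fold change 1.02, edgeR unadjusted p = 0.0908, adjusted p = 0.794), and the other ligand, Il34, had 0.45 to 1.29 CPM over all libraries. The libraries of the diets did not overlap in 2 of the 13 tested genes, against 6.83% of all genes tested. These were Csf1, higher on the low cystine diet, and Ccl3, which was lower. Ccl3 had 0.57 to 0.72 CPM on the normal and 0.24 to 0.44 CPM on the low cystine diet (log2 fold change -0.92, edgeR unadjusted p = 0.0513). Both were named after their values were seen. Il10 had 0 counts in all 7 libraries.

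Among 17 other complement genes, of which 16 were in the table, 14 were tested. At an unadjusted p under 0.05, 3 were higher, against 5.49% of all genes tested in either direction. C1s1, the serine protease that C1q engages, had 0.19 to 1.27 CPM on the normal and 1.68 to 3.44 CPM on the low cystine diet (log2 fold change 1.497, SE 0.537). Serping1, the inhibitor of that protease, had 0.76 to 1.68 and 2.84 to 3.31 CPM (log2 fold change 1.15, SE 0.320), and C3ar1, the receptor for the C3a fragment, had 0.14 to 0.77 and 0.69 to 1.87 CPM (log2 fold change 1.27, SE 0.560). The libraries did not overlap in 3 of the 14 tested genes, C1s1, Serping1 and C1ra (6.83% of all genes tested). C1s1, Serping1 and C3ar1 each had an edgeR adjusted p of 0.794. Without X1SI4 the log2 fold changes of C1s1, Serping1 and C3ar1 were 1.16, 0.95 and 0.94. The most abundant was C2 with 14.7 to 31.1 CPM, and the list's median log2 fold change was 0.16. Of 7 integrin partners and related genes, led by Tln1 (92.2 to 116 CPM), 7 were tested, 0 passed and the median was -0.01.

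Markers of several other cell types were also low in X1SI4. Paneth cell markers summed to 712 CPM in X1SI4, 2272 to 4563 CPM in the other normal cys libraries and 2796 to 4969 CPM in the low cys libraries, with all 7 markers lowest in X1SI4. All 7 were estimated higher on the restricted diet (median log2 fold change 0.72), and 0 passed at an unadjusted p under 0.05. B and plasma cell markers summed to 184 CPM in X1SI4, 468 to 649 CPM in the other normal cys libraries and 800 to 1197 CPM in the low cys libraries, and 2 of 7 tested were higher at an unadjusted p under 0.05 (Jchain, log2 fold change 1.25, and Igha, 1.14). Stromal markers summed to 10.3 to 19.5 CPM and 21.6 to 29.2 CPM, with 6 of 6 tested estimated higher and 2 of them at an unadjusted p under 0.05 (Dcn 1.55 and Col3a1 1.58, median 0.92, most abundant Vim). Smooth muscle markers, which the scraping should leave out, summed to 2.01 to 10.9 CPM and 5.43 to 35.7 CPM, highest in X26SI4, with 5 of 5 estimated higher and 2 of them at an unadjusted p under 0.05 (Des 1.89 and Actg2 2.11, median 1.67, most abundant Myh11). Beside these counts, 5.49% of all genes tested had an unadjusted p under 0.05 in either direction. The 6 genes of these lists that were higher at that threshold had an edgeR adjusted p of 0.794. Dcn alone had an adjusted p under 0.05 with DESeq2 (0.0343), against 0.719 with limma-voom. Endothelial markers had a median of 0.72 with 0 of 6 passing, the most abundant being Lyve1 (3.13 to 7.59 CPM).

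Epithelial markers summed to 19009 to 22490 CPM on the normal cystine diet, with X1SI4 the highest, and 13547 to 18929 CPM on the low cystine diet. Their median log2 fold change was -0.34, with Fabp6 the most abundant (2848 to 7454 CPM). Fabp6 had 7454 CPM in X1SI4 and 4048 to 5114 CPM in the other normal cys libraries. Epcam and Alpi were also highest in X1SI4, whereas Vil1, Cdh1, Krt8, Krt20 and Slc10a2 were highest in other libraries. At an unadjusted p under 0.05, 1 of 8 was lower (Krt20, -0.41), against 5.49% of all genes tested in either direction. Pan-leukocyte genes summed to 98.5 CPM in X1SI4, 146 to 196 CPM in the other normal cys libraries and 115 to 192 CPM in the low cys libraries, with 0 of 8 passing and a median of -0.11 (most abundant Ptprc). T cell and intraepithelial lymphocyte markers had 0 of 8 passing and a median of -0.30 (Gzma the most abundant). Mast cell markers had 0 of 3 passing and a median of -0.82, Cma1 being at 0 in all 7 libraries. Their most abundant gene, Kit, had a log2 fold change of 0.20. The part of these cell types in the values of the members was not tested. The members themselves summed to 34.3 CPM in X1SI4, 93.8 to 130 CPM in the other normal cys libraries and 119 to 135 CPM in the low cys libraries.

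**Figure D4:**
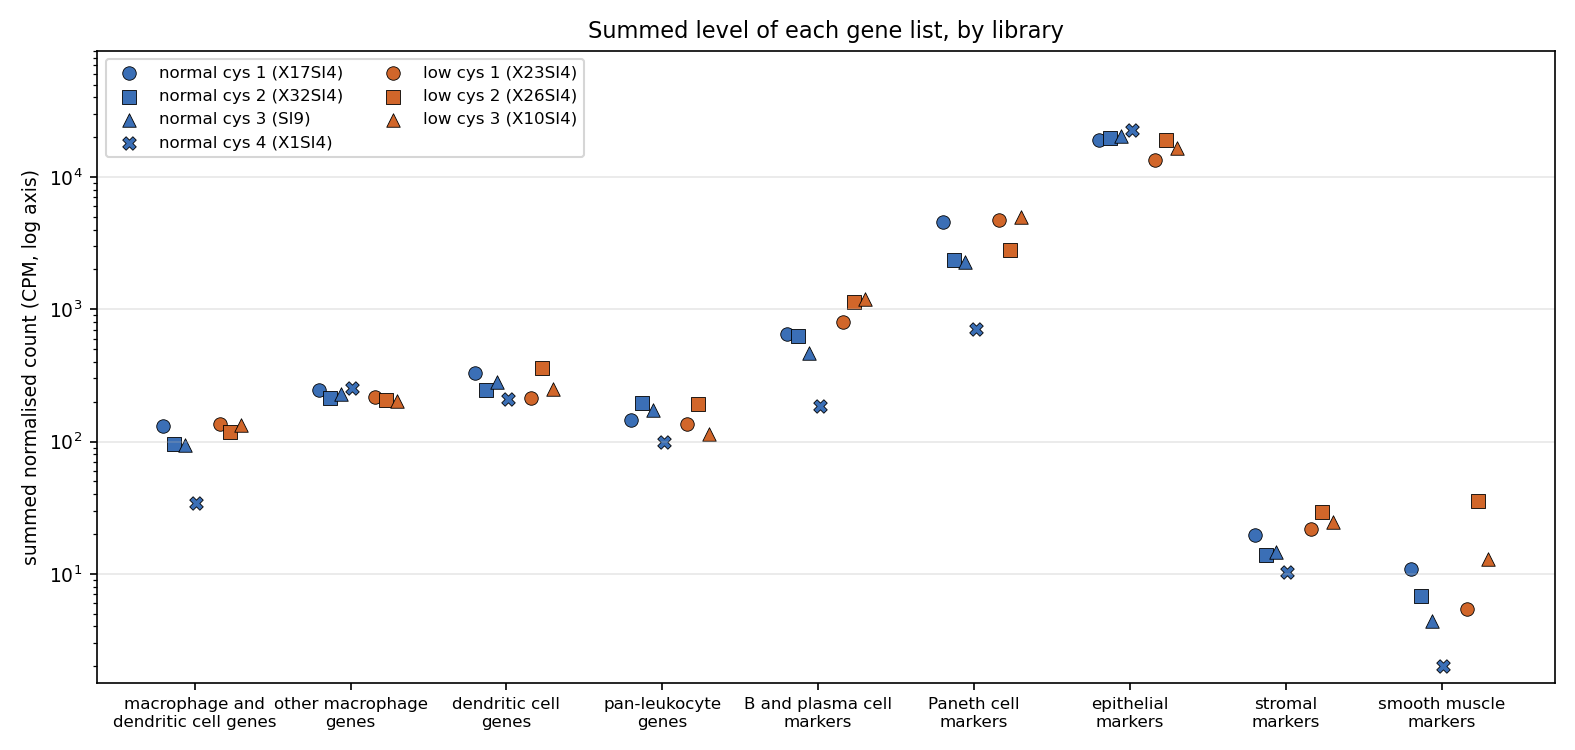
Summed CPM of each gene list (log axis) in each library, normal cys in blue and low cys in orange. X1SI4 (cross) is the lowest library for the macrophage and dendritic cell genes, the dendritic cell and pan-leukocyte genes, the B and plasma cell, Paneth cell, stromal and smooth muscle markers. For the dendritic cell genes the gap is small (211 CPM in X1SI4, 214 CPM in X23SI4). Irf8 has 69.8 CPM in X1SI4 and 104 to 193 CPM in the other libraries, whereas Ly75, Tlr3 and Itgae are not lowest in X1SI4. It is the highest for the epithelial markers and for the sum of the other macrophage genes (254 CPM against 203 to 244 CPM). Mertk makes up 179 CPM of that sum in X1SI4, and 8 of the 12 tested genes of the list are lowest there. Of the epithelial sum, Fabp6 makes up 7454 CPM in X1SI4 and at most 5459 CPM in another library.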

How the data were processed

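The data are 7 RNA-seq libraries of ileal scrapings, 1 per mouse. Per the paper's methods, the authors sequenced stranded poly(A) libraries as 50 bp pairs, trimmed them (Trim Galore 0.6.5), removed ribosomal reads, aligned the rest to GRCm38 with STAR and counted exons with featureCounts and an Ensembl annotation. The deposited values are raw counts per gene, without normalization. The strand setting of the counting and how multi-mapping reads were treated are not given in the sources used here.

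Groups were taken from the sample titles, which give no pairing, and no libraries were identical. Genes were filtered with filterByExpr (minimum count 10, minimum total 15), scaled by TMM and compared in edgeR 4.0.16 with its quasi-likelihood F-test, robust option (R 4.3.3, prior count 2, Benjamini-Hochberg over all 14869 genes, biological coefficient of variation 25.5%). Exact permutation tests used mean log2 CPM. The fit was tested on simulated data. DESeq2 1.42.0 (the tool of the study), limma-voom (limma 3.58.1), other scalings and filters and leaving out each library were alternatives. Members and lists were chosen with earlier results of these data known. Beside the members, Lyz1 and Itgb2, the named genes are each list's most abundant gene and up to 3 with an unadjusted p under 0.05, plus the 5 most alike genes. Other list genes were named after their values were seen. The list of natural killer and innate lymphoid cell markers is not reported here. Symbols were matched by name or by gene ID of an older symbol, and C1rb and Trdc were not matched. Precision is limited by 17 to 1548 counts per member and library and by the number of mice.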

Additional observations from a re-analysis of the deposited data

Results flagged for a closer look

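Gaps within the normal cys group were examined for the 10 members on the CPM and log2 CPM scales (20 values), by dividing the gap of the extreme library to its neighbour by the range of the 4 libraries. Values above Dixon's 95% critical value for 4 samples are listed, which chance gives in about 1 of 20 groups. X1SI4 stood apart as low on the log2 scale in C1qa (0.896), C1qb (0.882) and C1qc (0.904), 3 genes that move together. X17SI4 stood apart as high in CPM in Itgam (0.872). Their causes were not tested.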

How the results depend on the processing

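Of 13 alternatives, none gave a member an adjusted p under 0.05 (smallest 0.224, Itgam without X17SI4). Members with an unadjusted p under 0.05 numbered 1 with limma-voom and 0 to 1 on leaving out a library (Itgam, without X17SI4). Members without overlap numbered 2 of 10 with total library size alone (8.25% of all genes tested) and 0 to 4 on leaving out a library, with 4 without X17SI4 (18% of all genes tested) and 3 without X23SI4 (9.26%). Itgax turned to 0.14 with total library size alone, 0.036 with limma-voom and 0.0018 with at least 10 counts in every library, and ranged from -0.20 to 0.16 on leaving out a library. The same ranges were -0.29 to 0.38 for Cd68, -0.14 to 0.37 for Cx3cr1 and -0.0050 to 0.43 for Mrc1. The other 6 members kept a higher estimate in all 13. Total library size alone moved the median log2 fold change of all genes to 0.15. Across settings, 258 to 1763 genes had an unadjusted p under 0.05, against 817 in the reported fit. No paired analysis was possible because the labels carry no replicate numbers. X1SI4 had 17 to 80 counts in 8 of the 10 members, which limits their precision. The causes were not tested.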
